A study of Mus musculus with 10 samples.

Results

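LCDM and A2iL are media for mouse embryonic stem cells that hold differentiation back without a MEK inhibitor, and the 4 libraries grown in them, 2 per medium, were compared here out of 10 RNA-seq libraries in 5 culture conditions. The libraries were taken by their condition labels alone. All were made from an embryonic stem cell line of strain label C57BL6X129S6F1, and the labels name neither the clone nor the passage. Both media were N2B27, a serum-free base, with 1000 IU mLIF and 3 µM Chir99021, a GSK3 inhibitor that raises beta-catenin signalling, and both cultures had feeder cells per the labels. A2iL also held 1.5 µM CGP77675, an inhibitor of Src family kinases. LCDM instead held 2 µM of each of 2 compounds written Dim and Mih, which the labels do not spell out. The published LCDM medium for extended pluripotent stem cells contains dimethindene, a histamine receptor antagonist, and minocycline, an antibiotic reported to inhibit Parp1. The other conditions serve below as reference levels: SL, with 15% FBS and 1000 IU mLIF in place of N2B27 and on feeders, and the libraries labelled 2iL and 2iL-F, which had the N2B27 medium with 3 µM Chir99021, 1000 IU mLIF and 1 µM of the MEK inhibitor PD0325901, with and without feeders. The series set out to compare pluripotency genes, retroviral elements and epigenetic regulators between such media; retroviral elements are not analysed here.

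Embryonic stem cells keep their state through transcription factors such as Pou5f1 and Nanog, with LIF acting through JAK and STAT3 in support and FGF acting through MEK and ERK in opposition. When DNA methylation falls, a set of meiosis and germline genes whose CpG-rich promoters it silences becomes active, which makes these genes a common readout of the methylation state of such cultures. Feeder layers are growth-arrested fibroblasts, which secrete matrix and cytokines and whose RNA is harvested along with that of the stem cells.

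Values are TPM, given for library 3 and then library 5 of a condition. A difference is that of log2(TPM + 1), LCDM minus A2iL, ± SE, which understates changes of genes at low TPM, and a gene was called at an adjusted p below 0.05. The labels do not say whether libraries 3 and 5 are separate cultures, so the spread behind the p-values may be technical. TPM keep no depth, and the precision it would give is unknown. Libraries of 1 condition correlated at 0.9925 to 0.9939 across the rows tested, and LCDM with A2iL libraries at 0.9509 on average. The labels of the feeder-bearing reference cultures did not match the RNA. The libraries labelled 2iL, with feeders, held 0.2 and 0.264 TPM of the collagen gene Col1a1, and those labelled 2iL-F, without feeders, held 1058 and 974. Gene symbols stood beside their own values in the upper rows of the table only, so genes are named from these (7962 of the rows tested), and counts over all genes use every row.

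Of 14578 rows tested, 7873, or 54%, differed between LCDM and A2iL. In LCDM 4534 rows (31.1%) were higher and 3339 (22.9%) lower, so that 57.6% of the calls were higher; with median-of-ratios scaling this share was 47.5%. Large differences went mostly the other way, with 382 rows (2.62%) higher and 935 (6.41%) lower by at least 1 log2 unit. The median over all rows was 0.06. The shares of 31.1% and 22.9% are the background to the counts of list members. Of the 15 leading increases among genes that could be named, 6 were meiotic or germline genes (Stra8, Smc1b, Sohlh2, Mov10l1, Dazl and Hormad1), and the others were Myo1f, Dusp9, Fam131c, Cotl1, Slc38a4, Tesc, Col9a2, Calcoco2 and Aifm3. Of the 15 leading decreases, 5 were chemokine genes (Ccl2, Ccl7, Ccl8, Cxcl1 and Cxcl5), and the others were C3, Lcn2, Ptx3, Steap4, Tnfaip3, Mmp9, Dcn, Tmem176a, Tmem176b and Trh.

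**Figure D1:**
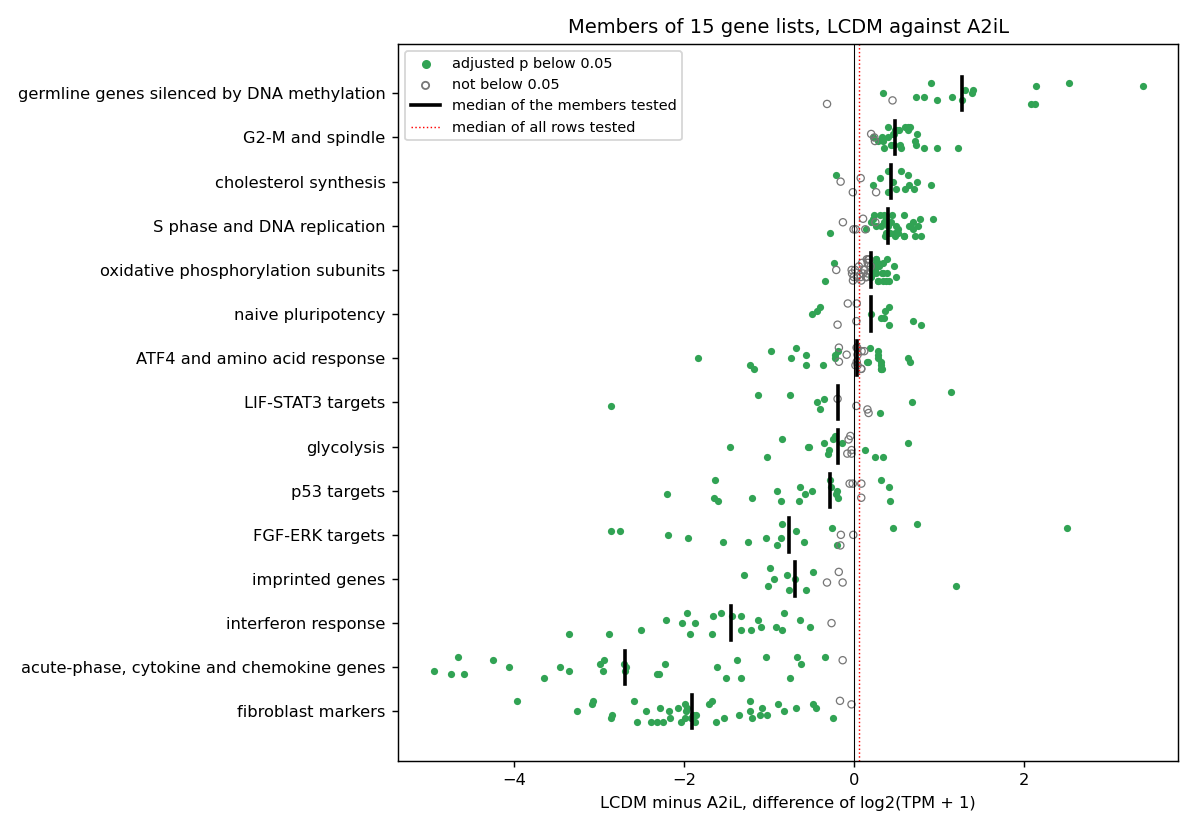
Differences of log2(TPM + 1) between LCDM and A2iL (x axis) for the tested members of 15 gene lists (y axis), filled where the adjusted p was below 0.05, with the median of each list as a bar and that of all rows as a dotted line. The germline list lies furthest to the right with a median of 1.28, and the acute-phase list furthest to the left with a median of -2.69.

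Fibroblast RNA was lower in LCDM. Of 44 fibroblast markers tested, 42 were lower in LCDM and 0 were higher, against 22.9% of all rows lower and 31.1% higher, with a median of -1.90. Col1a1 encodes part of type I collagen (chromosome 11, 94936224 to 94953042, mm10). It had 407 and 381 TPM in A2iL and 108 and 105 in LCDM, a difference of -1.87 ± 0.06 (adjusted p = 9.57e-08). The LCDM libraries lay far below those of A2iL with no overlap. The collagen gene Col3a1 stood at 128 and 121 against 17.9 and 15.1 TPM, and Dcn, the matrix proteoglycan decorin, at 109.8 and 105 against 5.78 and 6.11. The ratio was thus not the same for all markers: A2iL exceeded LCDM 3.69-fold for Col1a1, 7.5-fold for Lox, a collagen cross-linking enzyme, and 18.1-fold for Dcn. The smooth muscle actin gene Acta2, a marker of activated fibroblasts, went the other way, with 23.7 and 24.8 TPM in A2iL and 30.8 and 26.3 in LCDM (0.23 ± 0.07, adjusted p = 0.0316). That call was lost with median-of-ratios scaling (adjusted p = 0.102), with quantile normalisation, with only these 4 libraries in the fit, and without LCDM library 3 (adjusted p = 0.215) or either A2iL library. Of 26 contractile genes and serum response factor targets tested, 11 were lower and 4 higher, and 2 were higher without either A2iL library. In such bulk RNA, fewer fibroblasts and less RNA per fibroblast cannot be told apart.

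**Figure D2:**
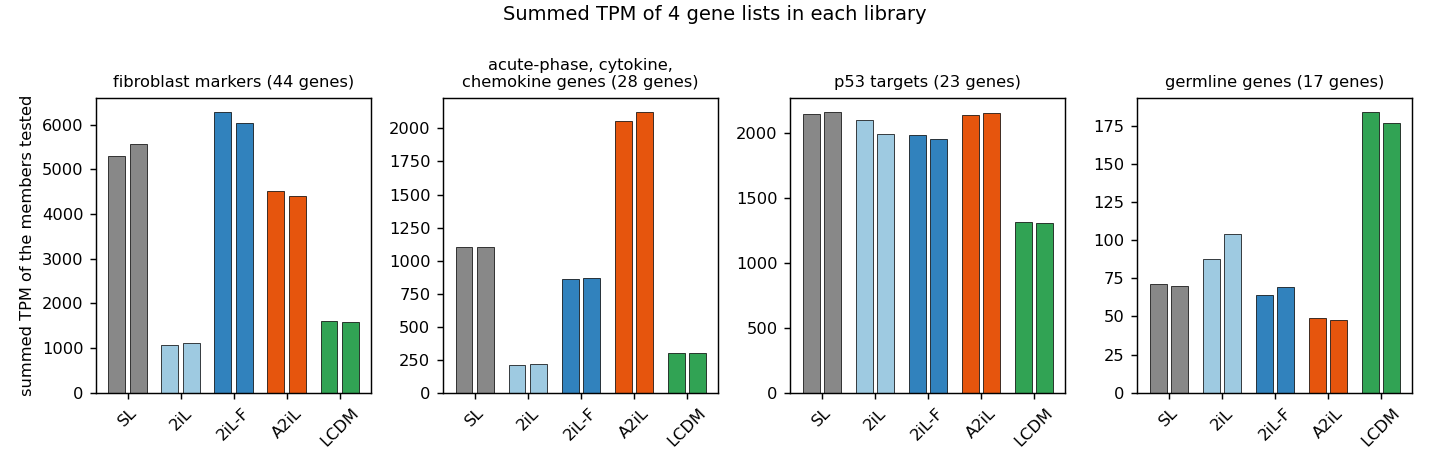
Summed TPM of the tested members of 4 gene lists (y axes, from 0) in each of the 10 libraries (bars, library 3 left and library 5 right). Fibroblast markers sum to 4510.1 and 4405.4 in A2iL and to 1608.7 and 1588 in LCDM, whereas acute-phase genes are highest in A2iL, germline genes highest in LCDM, and p53 targets lowest in LCDM.

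To show which differences went along with fibroblast RNA, each gene is set beside its difference between the libraries labelled 2iL-F and 2iL, which share a medium and share no library with the comparison here. Of the 935 rows lower in LCDM by at least 1 log2 unit, 594 (63.5%) were higher in 2iL-F by at least 1, against 8.44% of all rows, and 150 (16%) were within 0.5 of 0 in that pair. Of the 382 rows higher in LCDM by that much, 160 (41.9%) were within 0.5 of 0, and 88 (23%) were lower in 2iL-F by at least 1, against 4.68% of all rows. Among 47 rows that were at least 32-fold apart in the reference pair, 46 were lower in LCDM, by a median of -2.03 and with a 5th to 95th percentile range of -4.03 to -0.76. The reference pair held 1 µM PD0325901, which LCDM and A2iL did not. How much of a gene's RNA fibroblasts make without the MEK inhibitor cannot be read from it. The part of fibroblast RNA in any single difference was not tested.

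**Figure D3:**
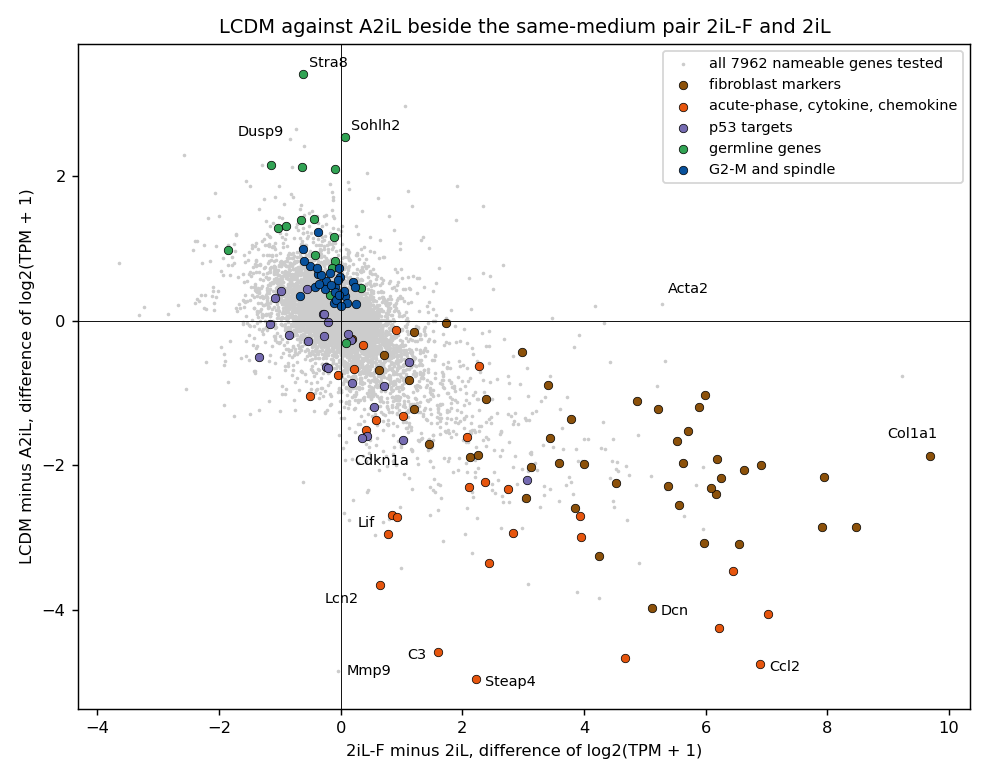
Each point is a named gene, with its difference of log2(TPM + 1) between 2iL-F and 2iL on the x axis and between LCDM and A2iL on the y axis; 5 gene lists are coloured. Fibroblast markers run to the lower right; Lif, Lcn2 and Mmp9 lie low near the vertical axis, and Stra8, Sohlh2 and Dusp9 lie high at or left of it.

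Germline genes were higher in LCDM. Of 27 genes on a list of germline genes silenced by DNA methylation, 20 could be named and 17 were tested; 15 were higher in LCDM, 0 lower, and the median was 1.28. The promoters of 5 members that rose are shown first because the literature links CpG and the E-box CACGTG, bound by Max-Mga complexes, to silencing of such genes, along with the E2F motif GCGGGAA. The first 4 hold the E-box, and that of Stra8, which rose most, holds neither motif and has 5 CpG. Each sequence is the 250 bases before the first start that RefSeq (GRCm38.p6) lists for the gene, 5′ to 3′ on the gene's strand, with E-box and E2F motifs in capitals.
Hormad1, chr3:95559427-95559676, plus strand: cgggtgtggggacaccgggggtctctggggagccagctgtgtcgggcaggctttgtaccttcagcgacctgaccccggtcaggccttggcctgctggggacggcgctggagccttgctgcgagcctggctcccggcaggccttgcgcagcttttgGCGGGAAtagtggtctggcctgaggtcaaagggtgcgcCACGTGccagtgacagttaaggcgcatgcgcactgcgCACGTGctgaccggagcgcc
Ddx4, chr13:112652311-112652560, minus strand: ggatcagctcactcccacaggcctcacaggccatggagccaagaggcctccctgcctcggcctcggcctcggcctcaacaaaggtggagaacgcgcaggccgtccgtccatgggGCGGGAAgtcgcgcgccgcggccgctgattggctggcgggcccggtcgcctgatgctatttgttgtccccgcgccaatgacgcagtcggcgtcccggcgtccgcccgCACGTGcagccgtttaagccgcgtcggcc
Mov10l1, chr15:88982744-88982993, plus strand: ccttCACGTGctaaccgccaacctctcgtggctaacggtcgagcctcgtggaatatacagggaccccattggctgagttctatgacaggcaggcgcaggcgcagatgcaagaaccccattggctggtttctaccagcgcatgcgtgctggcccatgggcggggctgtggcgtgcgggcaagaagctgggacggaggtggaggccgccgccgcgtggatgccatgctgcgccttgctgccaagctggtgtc
Taf7l, chrX:134476491-134476740, minus strand: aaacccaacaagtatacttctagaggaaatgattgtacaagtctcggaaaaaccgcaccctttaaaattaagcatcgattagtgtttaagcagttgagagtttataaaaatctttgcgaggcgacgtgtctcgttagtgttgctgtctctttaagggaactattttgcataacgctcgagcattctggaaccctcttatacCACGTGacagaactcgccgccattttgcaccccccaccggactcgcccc
Stra8, chr6:34920698-34920947, plus strand: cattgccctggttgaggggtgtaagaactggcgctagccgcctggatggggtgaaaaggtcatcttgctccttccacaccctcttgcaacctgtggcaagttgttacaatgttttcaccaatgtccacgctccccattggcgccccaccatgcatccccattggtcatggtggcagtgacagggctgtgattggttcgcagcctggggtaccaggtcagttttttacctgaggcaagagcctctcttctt
Searched on both strands, CACGTG occurred in 8 of the 13 matched promoters of the 15 genes that rose (61.5%), against 6.05% of 27025 promoters and 9.88% of the 7992 promoters with at least 14 CpG. The 8 genes were Ddx4, Hormad1, Mov10l1, Stk31, Sycp1, Sycp3, Taf7l and Tdrd1. GCGGGAA occurred in 3 of the 13 (23.1%), against 3.84% of all promoters and 9.36% of the CpG-rich ones. As 15 of the 17 members tested rose, these shares describe the list, not genes higher in LCDM at large. Among the 25 genes named for the size of their rise, 18 promoters were matched. CACGTG occurred in 2 of these (11.1%) and GCGGGAA in 4 (22.2%). The median CpG number was 17 in the 13 germline promoters and 6 in all. The E2F search and the CpG count were added after seeing that these genes were higher, and a match is a description of letters, not a binding site. Dazl, Sohlh2 and Stra8 had neither motif in the window. The window of Stra8 lies inside the GENCODE span of the gene given below, so its content depends on the start used.

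Stra8, which germ cells need to enter meiosis (chromosome 6, 34920163 to 34939344, mm10), showed the largest rise of any named gene. It had 3.09 and 3.09 TPM in A2iL and 43.9 and 40.8 in LCDM, a difference of 3.41 ± 0.08 (adjusted p = 2.39e-08). SL came next with 14.5 and 13.1 TPM, and the libraries labelled 2iL had 5.11 and 5.21. LCDM was the highest of the 5 conditions, and its difference from SL was 1.55 ± 0.08, adjusted p = 6.19e-07. Sohlh2, a transcription factor of early germ cells, rose from 3.32 and 3.9 to 25.2 and 26.2 TPM (2.54 ± 0.11, adjusted p = 5.26e-07). Here the libraries labelled 2iL and 2iL-F, at 14.4 and 17.4 and 15.5 and 17.7 TPM, were closer to LCDM than to A2iL. Dazl, an RNA-binding protein of germ cells, had 1.74 and 1.21 TPM in A2iL and 10 and 9.51 in LCDM (2.13 ± 0.15, adjusted p = 8.99e-06), and 13.3 and 18 in the libraries labelled 2iL. For Dazl, LCDM was thus not the highest condition. Mov10l1, a helicase of the piRNA pathway, rose from 0.598 and 0.983 to 6.83 and 6.9 TPM (2.14 ± 0.11, adjusted p = 1.28e-06). The meiotic chromosome axis gene Hormad1 rose from 0.854 and 1.64 to 7.99 and 8.88 TPM (2.09 ± 0.16). Outside the list, the meiotic cohesin gene Smc1b had 0.14 and 0.293 TPM in A2iL and 6.39 and 6.8 in LCDM (2.64 ± 0.11, adjusted p = 3.48e-07). The 2 members not called were Syce1, at 5.21 and 3.69 against 6.66 and 6.17 TPM (adjusted p = 0.0627), and Tex15, at 5.8 and 5.84 against 4.83 and 4.16 (adjusted p = 0.0787). With median-of-ratios scaling, or with only these 4 libraries in the fit, 1 member of the list was lower. The summed TPM of the 17 genes was 48.99 and 47.84 in A2iL and 184.07 and 176.71 in LCDM, and reached at most 104.3 elsewhere, in 1 library labelled 2iL. Of the 15 that rose, 8 did not fall by 0.5 or more from 2iL to 2iL-F.

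**Figure D4:**
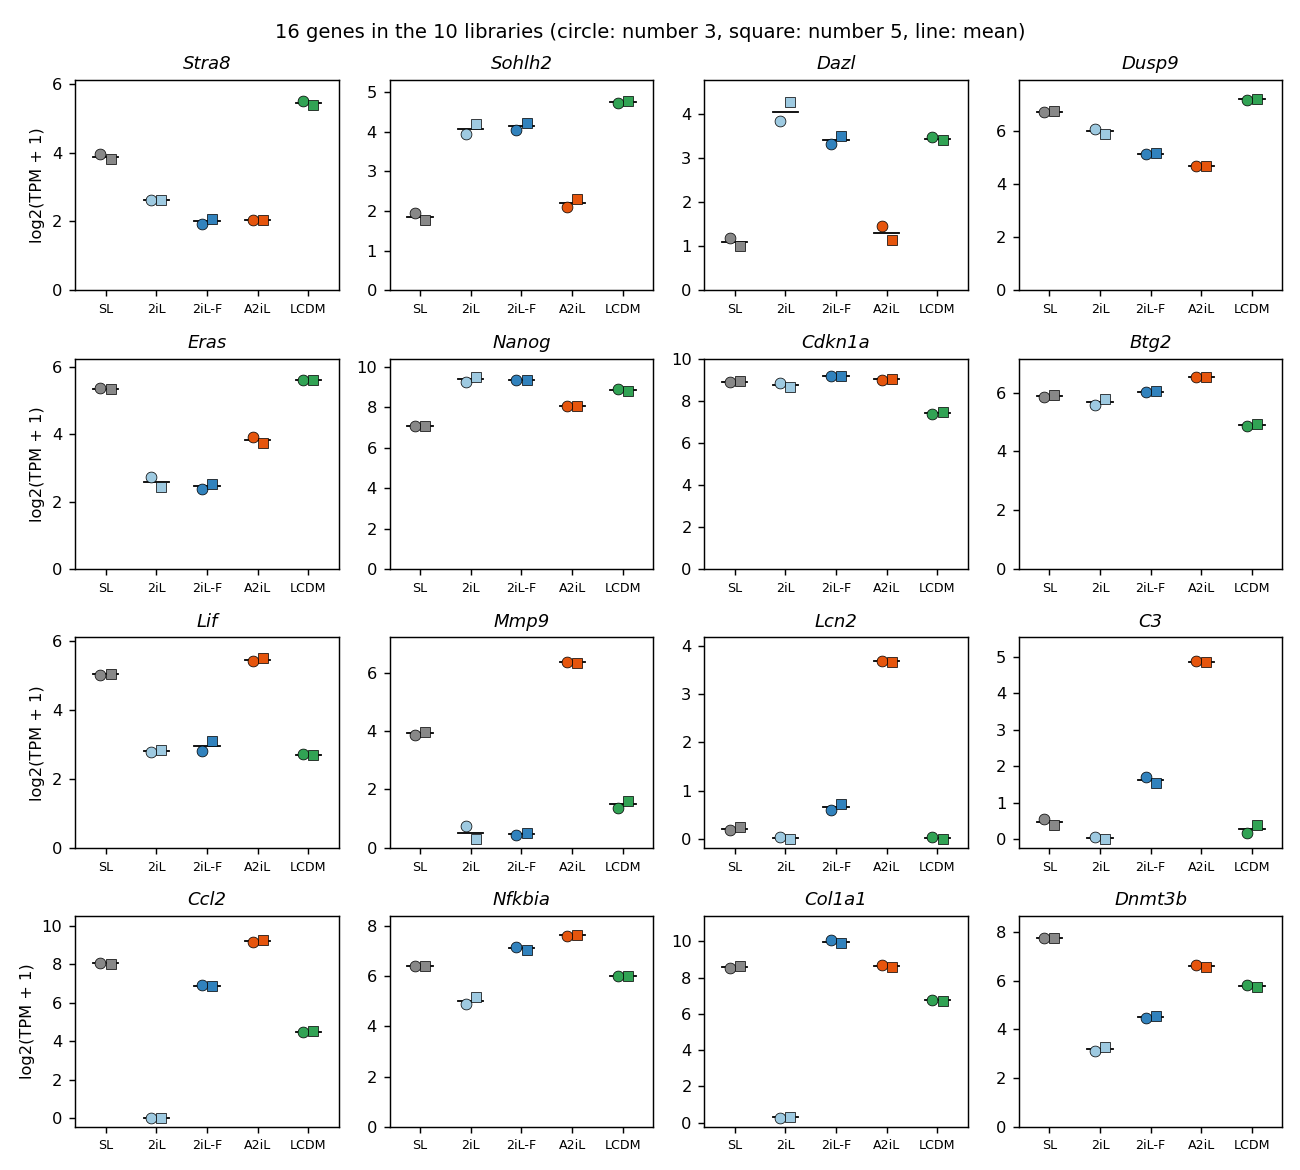
Log2(TPM + 1) of 16 genes (panels) in each of the 10 libraries; circles are library 3, squares library 5 and lines the mean of the 2. Stra8 and Dusp9 peak in LCDM, Cdkn1a and Btg2 are lowest there, and Lcn2, C3 and Mmp9 stand out in A2iL.

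The DNA methyltransferase genes Dnmt3b and Dnmt3l were lower in LCDM and Dnmt3a higher. Of 17 DNA methylation and demethylation genes tested, 7 (41.2%) were higher in LCDM and 3 (17.6%) lower, near the 31.1% and 22.9% of all rows, with a median of 0.07. The de novo methyltransferase gene Dnmt3b (chromosome 2, 153649450 to 153687730, mm10) had 99.1 and 94.6 TPM in A2iL and 55.4 and 51.9 in LCDM, a fall (-0.84 ± 0.07, adjusted p = 1.74e-05). Both media lay between the libraries labelled 2iL, at 7.73 and 8.82 TPM, and SL, at 214 and 217. Its cofactor Dnmt3l fell as well, from 39.7 and 39.4 to 29.3 and 27.5 TPM (-0.46 ± 0.07, adjusted p = 0.000535). Dnmt3a, the other de novo enzyme, rose from 10.7 and 11.2 to 18.8 and 18 TPM (0.69 ± 0.06, adjusted p = 1.99e-05). Uhrf1, which brings the maintenance enzyme to replicated DNA, rose from 221 and 220.2 to 318 and 318 TPM (0.53 ± 0.04, adjusted p = 2.18e-05). DNA methylation itself was not measured in these files.

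Several pluripotency genes were higher in LCDM. Of 24 naive pluripotency genes listed, 15 could be named and tested, and 8 were higher in LCDM and 3 lower, with a median of 0.20. Of 17 core genes listed, only 5 could be named, and of these 4 were higher and 0 lower. The core count higher was 3 with median-of-ratios scaling, with quantile normalisation, or with only the 4 LCDM and A2iL libraries in the fit. Nanog (chromosome 6, 122707489 to 122714633, mm10) had 269.6 and 264 TPM in A2iL and 473 and 450.1 in LCDM, a rise of 0.79 ± 0.08 (adjusted p = 5.08e-05). Its level in LCDM stayed under that of the libraries labelled 2iL, 606 and 729 TPM. Tdgf1, a co-receptor for Nodal, rose from 313 and 304 to 622 and 586 TPM (0.97 ± 0.07, adjusted p = 6.17e-06) and was higher in LCDM than in SL, at 438 and 440. Pou5f1 was higher by 0.27 ± 0.04. Tfcp2l1, a naive transcription factor downstream of LIF, fell from 124 and 122 to 93.7 and 88.3 TPM (-0.43 ± 0.07, adjusted p = 0.00121). Klf4 was not called, at 563 and 553 against 574 and 566 TPM (adjusted p = 0.597), and its sign turned with median-of-ratios scaling. Eras, a constitutively active Ras made by embryonic stem cells (chromosome X, 7924276 to 7928607, mm10), had 14.1 and 12.4 TPM in A2iL and 47.3 and 47.9 in LCDM (1.77 ± 0.11, adjusted p = 3.8e-06). LCDM was closest to SL, 40 and 39.5 TPM, and the libraries labelled 2iL had 5.7 and 4.36. Among the lineage-priming lists, of 14 primed and formative genes tested, 6 were higher and 5 lower, with a median of -0.02; the count higher was 3 without LCDM library 5. The largest change among them was the fall of Lef1, a partner of beta-catenin, from 11.4 and 10.9 to 2.57 and 2.4 TPM (-1.80 ± 0.08, adjusted p = 4.62e-07). Of the 5 lower members, 2 had a 2iL-F minus 2iL difference below 0.5. The part of fibroblast RNA in the fall of Lef1 was not tested.

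Most targets of FGF and ERK signalling were lower in LCDM, although neither medium held a MEK inhibitor. Of 20 tested, 14 were lower and 3 higher, against 22.9% and 31.1% of all rows, with a median of -0.76; 4 of the 14 had a 2iL-F minus 2iL difference below 0.5. Spry4, a feedback inhibitor that stood at 0.229 and 0.287 TPM in the MEK-inhibited libraries labelled 2iL, was at 31.4 and 32.5 in A2iL and 17.9 and 16.9 in LCDM (-0.84 ± 0.08, adjusted p = 3.25e-05). Dusp6, an ERK phosphatase, fell from 59.3 and 54.4 to 35.2 and 35.1 TPM (-0.68 ± 0.06). Fos, an immediate early gene, fell from 479.6 and 473 to 256 and 251 TPM (-0.91 ± 0.04, adjusted p = 4.9e-07). Both media held these genes above the libraries labelled 2iL, which also nearly lacked Col1a1. The summed TPM of the 20 genes was 404.65 and 389.97 in 2iL and 893.11 and 863.93 in 2iL-F, which held the same inhibitor. It was 2079.2 and 2035.9 in A2iL and 1298.8 and 1316.1 in LCDM. In the low level of 2iL, MEK inhibition and missing fibroblast RNA cannot be told apart. The cytokine gene Lif (chromosome 11, 4257557 to 4272514, mm10) had 41.5 and 44.5 TPM in A2iL and 5.59 and 5.42 in LCDM, a difference of -2.76 ± 0.09 (adjusted p = 1.07e-07). The level in LCDM was near that of the libraries labelled 2iL-F, 6 and 7.57 TPM, which held the MEK inhibitor and the most fibroblast RNA. A2iL was above SL, at 31.3 and 32.1. Dusp9, an ERK phosphatase made by embryonic stem cells (chromosome X, 73639419 to 73643514, mm10), went strongly the other way. It had 24.9 and 24.6 TPM in A2iL and 143 and 148 in LCDM, 5.88-fold higher (2.51 ± 0.07, adjusted p = 3.85e-08). A2iL was the lowest of the 5 conditions for Dusp9 and LCDM the highest, with SL at 104 and 106 TPM. Fgf17, an FGF ligand, also rose, from 9.42 and 9.19 to 36.7 and 39.4 TPM (1.92 ± 0.08, adjusted p = 3.25e-07). Without the rows higher in 2iL-F, 6 FGF-ERK targets were lower, of fewer tested, and the median was -0.22.

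Src, whose kinase family CGP77675 inhibits, was not called. Of 16 Src family and regulator genes tested, 3 (18.8%) were higher in LCDM and 4 (25%) lower, against 31.1% and 22.9% of all rows, with a median of -0.04. Src had 68.2 and 67.1 TPM in A2iL and 67.8 and 75 in LCDM (0.08 ± 0.08, adjusted p = 0.426); its sign turned with median-of-ratios scaling, under which 7 genes of the list were lower. Yes1, a broadly expressed family member, was lower, at 25.1 and 26.7 against 20.9 and 20.6 TPM (-0.31 ± 0.10, adjusted p = 0.0301), a call lost without any 1 of the 4 libraries (adjusted p = 0.0647 to 0.14). Parp1, the reported target of minocycline, was higher in LCDM, at 283 and 279 against 338 and 345 TPM (0.28 ± 0.04, adjusted p = 0.000321), and of 15 genes of its family 4 (26.7%) were higher and 5 (33.3%) lower, near the shares over all rows. Of 23 genes of histamine, muscarinic and Gq signalling listed, 7 were tested. Of these 2 (28.6%) were higher and 2 (28.6%) lower, near the 31.1% and 22.9% of all rows. With a filter of 5 TPM, or without the rows higher in 2iL-F, 1 was lower. Rgs2, which shortens Gq signals, fell from 20.4 and 20.8 to 1.8 and 1.78 TPM (-2.96 ± 0.09, adjusted p = 8.33e-08).

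Most targets of the tumour suppressor p53 were lower in LCDM. Of 23 tested, 16 were lower and 3 higher, against 22.9% and 31.1% of all rows, with a median of -0.28. Cdkn1a, the cyclin-dependent kinase inhibitor p21 (chromosome 17, 29090976 to 29100727, mm10), had 518 and 529 TPM in A2iL and 167 and 179 in LCDM, 3.03-fold lower (-1.59 ± 0.07, adjusted p = 4.1e-07). LCDM was the lowest of the 5 conditions. The others lay between 401 and 582 TPM, and A2iL did not differ from SL by the test (0.11 ± 0.07, adjusted p = 0.218). Btg2, an antiproliferative gene, was also lowest in LCDM, with 92.3 and 90.8 TPM in A2iL, 56.1 and 59.2 in SL and 28.5 and 29.4 in LCDM (-1.63 ± 0.06, adjusted p = 3.06e-07). Mdm2, which degrades p53, fell from 118 and 122 to 52.6 and 50.7 TPM (-1.20 ± 0.09, adjusted p = 8.43e-06), with 43.7 and 53.6 in the libraries labelled 2iL. The death receptor gene Fas fell from 12.7 and 13 to 1.83 and 2.21 TPM and stood at 7.94 and 8.39 in 2iL-F and 0.0487 and 0.137 in 2iL. The 3 members that were higher, chosen for naming after their values were seen, were Ddb2, Rrm2b and Xpc, which act in repair or nucleotide supply; 1 was higher without A2iL library 3.

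Cell cycle and replication genes were higher in LCDM. Of 29 G2-M and spindle genes tested, 26 were higher and 0 lower, with a median of 0.49. Of 40 S phase genes 33 were higher and 1 lower, with a median of 0.40. The S phase count lower was 2 with median-of-ratios scaling and 0 without the rows higher in 2iL-F. Pttg1, which encodes securin, had 33.9 and 33.9 TPM in A2iL and 79 and 82.4 in LCDM (1.23 ± 0.05, adjusted p = 3.43e-07). The libraries of the other 3 conditions all lay between 29.3 and 40.3 TPM, so LCDM stood apart for Pttg1. Ccnb2, a cyclin of mitosis, rose from 124 and 133 to 252 and 258 TPM (0.98 ± 0.04), a level shared with the libraries labelled 2iL, 255 and 258. Ccne1, the cyclin of S phase entry, rose from 83.9 and 81.3 to 159 and 158 TPM (0.93 ± 0.05, adjusted p = 2.22e-06). Of 29 double-strand break repair genes 17 were higher and 0 lower (1 lower without A2iL library 3), and of 24 genes of the replication stress checkpoint 14 were higher and 0 lower. Rad51c, a recombination gene, rose from 5.52 and 5.02 to 10.5 and 10.7 TPM (0.89 ± 0.07, adjusted p = 1.3e-05), and the replication kinase gene Cdc7 rose from 11.1 and 10.4 to 20.4 and 18.7 (0.81 ± 0.10). Feeder fibroblasts are growth-arrested, and fibroblast RNA was lower in the same libraries; its part in these increases was not tested.

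Acute-phase, cytokine and chemokine genes fell furthest. Of 28 tested, 27 were lower in LCDM and 0 higher, with a median of -2.69. Many are classical targets of NF-kB, so the promoters of 2 of them are shown, as 250 bases before the RefSeq start (GRCm38.p6), 5′ to 3′ on the gene's strand, with the NF-kB motif in capitals. The motif searched was GGGA, 2 bases of any kind and TTCC, on either strand.
Cxcl1, chr5:90890995-90891244, plus strand: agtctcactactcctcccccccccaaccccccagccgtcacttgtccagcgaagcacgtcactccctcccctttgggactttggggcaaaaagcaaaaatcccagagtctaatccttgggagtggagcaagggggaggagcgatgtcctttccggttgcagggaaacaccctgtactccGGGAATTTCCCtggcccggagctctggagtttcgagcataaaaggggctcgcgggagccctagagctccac
Nfkbia, chr12:55492648-55492897, minus strand: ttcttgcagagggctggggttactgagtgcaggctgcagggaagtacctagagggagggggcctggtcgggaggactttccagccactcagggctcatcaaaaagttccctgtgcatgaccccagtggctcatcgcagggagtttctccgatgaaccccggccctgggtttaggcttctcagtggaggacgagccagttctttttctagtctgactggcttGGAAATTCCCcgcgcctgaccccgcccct
This motif occurred in 5 of the 19 matched promoters of the 27 genes that fell (26.3%), namely Csf1, Cxcl1, Cxcl10, Il6 and Nfkbia, against 1.17% of 27025 promoters; the looser form, GGG and CC around 5 bases of any kind, occurred in 84.2% against 45.4%. As 27 of the 28 members tested fell, these shares describe the list, not genes lower in LCDM at large. Among the 29 genes named for the size of their fall, 21 promoters were matched, and 1 (4.76%) held the stricter form. The looser form occurred in 66.7% of these 21 and in 66.7% of the 18 matched among genes named for the size of their rise. The stricter form was added after the values were seen. Lcn2, C3 and Steap4 had no match to it in the window.

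The chemokine gene Ccl2 had 582 and 616 TPM in A2iL and 20.9 and 21.8 in LCDM (-4.74 ± 0.05, adjusted p = 4.48e-10). Cxcl1 fell from 229 and 246 to 11.7 and 11.4 TPM (-4.25 ± 0.06, adjusted p = 3.05e-09). Ccl2 and Cxcl1 were listed at 0 TPM in the libraries labelled 2iL, which also nearly lacked Col1a1. In 2iL-F, Ccl2 was at 119 and 118 TPM, below A2iL, and Col1a1 was higher there than in A2iL. Lcn2, an iron-binding acute-phase protein (chromosome 2, 32384633 to 32388252, mm10), had 11.8 and 11.8 TPM in A2iL, 0.0371 and 0 in LCDM, 0.143 and 0.183 in SL and 0.511 and 0.666 in 2iL-F. The complement gene C3 had 28.3 and 27.6 TPM in A2iL, 0.113 and 0.309 in LCDM, 0.461 and 0.299 in SL and 2.26 and 1.89 in 2iL-F. Steap4, a metalloreductase induced by cytokines, had 37.9 and 37.1 TPM in A2iL, 0.216 and 0.28 in LCDM and 3.74 and 3.57 in 2iL-F. Lcn2, C3 and Steap4 were thus high in A2iL alone among the 5 conditions, and each A2iL library exceeded every other library (adjusted p against LCDM 3.8e-08, 3.22e-08 and 4.42e-09). The chemokine genes Cxcl5, Ccl7 and Ccl8, the last not on the list, fell as well, with differences of -4.66 ± 0.07, -3.46 ± 0.07 and -3.76 ± 0.20. Ptx3, a secreted pattern recognition protein, had 102 and 106 TPM in A2iL, 5.55 and 5.07 in LCDM and 135 and 130.4 in 2iL-F, so that A2iL was not the highest condition for it. Tnfaip3, which restrains NF-kB signalling, fell from 24.9 and 23.3 to 1.56 and 1.37 TPM (-3.35 ± 0.08). The membrane protein genes Tmem176a and Tmem176b, also not on the list, fell too, with differences of -3.64 ± 0.08 and -3.84 ± 0.08. Nfkbia, the inhibitor that NF-kB itself induces, fell from 195 and 197 to 63.7 and 63 TPM (-1.61 ± 0.09, adjusted p = 1.47e-06). The summed TPM of the 28 genes was 2056 and 2124.9 in A2iL, 1104.9 and 1101 in SL, 857.16 and 867.79 in 2iL-F and 302.65 and 296.47 in LCDM. Fibroblast markers summed to more in SL and 2iL-F than in A2iL, so the 2 lists did not have the same order across conditions. SL also held serum and 2iL-F the MEK inhibitor, so medium and fibroblast RNA cannot be told apart in that order. Without the rows higher in 2iL-F, 10 acute-phase genes were lower, of fewer tested.

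Interferon response genes were lower too. Of 23 tested, 22 were lower in LCDM and 0 higher, with a median of -1.44. Isg15, a ubiquitin-like protein induced by interferon, fell from 31.9 and 32.7 to 2.57 and 1.99 TPM (-3.35 ± 0.10, adjusted p = 5.02e-08). It was 33.9 and 30.8 TPM in 2iL-F and 0.116 and 0.109 in the libraries labelled 2iL, and was highest in SL, at 96.7 and 86.2. Without the rows higher in 2iL-F, 8 interferon genes were lower, of fewer tested. Immune cell markers gave a mixed result, with 3 of 8 higher (37.5%) and 3 lower (37.5%), against 31.1% and 22.9% of all rows. Their median was 0.11, and single differences ran from -2.06 to 1.14. The summed level was 93.2 to 94.7 TPM in A2iL and 89.97 to 94.5 in LCDM. The macrophage marker Adgre1, 1 of the 3 lower, fell from 3.78 and 3.55 to 0.12 and 0.109 TPM.

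Several genes fell in LCDM without a like difference between 2iL-F and 2iL, a pair in which both sides held the MEK inhibitor. Mmp9, a gelatin-cleaving protease (chromosome 2, 164940780 to 164955850, mm10), had 81.4 and 79.4 TPM in A2iL and 1.59 and 2.07 in LCDM, 43.9-fold lower (-4.85 ± 0.14, adjusted p = 5.27e-08). The libraries labelled 2iL and 2iL-F had 0.669 and 0.233 and 0.354 and 0.419 TPM, and SL had 13.7 and 14.8. A2iL was thus the highest condition for Mmp9 by a wide margin. Mt2, a metal-binding metallothionein, fell from 2572 and 2696 to 692 and 713 TPM (-1.91 ± 0.05, adjusted p = 4.72e-08), and its neighbour Mt1 from 952 and 951 to 290 and 294 (-1.70 ± 0.04). LCDM was the lowest of the 5 conditions for both. Lrig1, a brake on receptor tyrosine kinases, fell from 45.1 and 43.3 to 12.4 and 12.3 TPM (-1.76 ± 0.05), and Pdpn, the mucin-like podoplanin, from 142 and 143 to 46.1 and 43.6 (-1.65 ± 0.05). Trh, the thyrotropin-releasing hormone gene, had 1100 and 1097 TPM in A2iL and 98.8 and 105 in LCDM (-3.42 ± 0.05, adjusted p = 3.14e-09). Unlike these genes it was also higher in 2iL-F, at 64.5 and 59.6 TPM, than in 2iL, at 29.6 and 31.5 (1.00 ± 0.05, adjusted p = 1.11e-06). It was highest in A2iL, with 338 and 349 TPM in SL. Among increases without a like fall in the reference pair, the unconventional myosin gene Myo1f rose from 0.324 and 0.335 to 9.28 and 9.45 TPM (2.96 ± 0.10, adjusted p = 1.29e-07) and the folate receptor gene Folr1 from 5.09 and 6.96 to 23.6 and 23.6 (1.82 ± 0.11). The receptor subunit gene Cntfr rose from 4.61 and 4.3 to 14.5 and 16.1 TPM (1.58 ± 0.09), and the laminin gene Lama3, at 1.15 and 0.886 TPM in SL, from 1.24 and 1.13 to 5.46 and 5.06 (1.52 ± 0.10). Slc38a4, an amino acid transporter, and Cotl1, an actin-binding protein, rose by 2.16 ± 0.06 and 2.28 ± 0.05, but both also fell by over 1 log2 unit from 2iL to 2iL-F. Col9a2, a chain of type IX collagen, rose from 1.47 and 1.42 to 8.61 and 9.64 TPM (2.05 ± 0.08), and Calcoco2, an autophagy receptor, from 2.52 and 2.65 to 15.3 and 12.4 (2.04 ± 0.09). Calcoco2 was far higher in the libraries labelled 2iL, at 121 and 125 TPM, than in LCDM. Fam131c, Tesc and Aifm3 rose by 2.41 ± 0.08, 2.12 ± 0.16 and 1.92 ± 0.13 and were lower in 2iL-F than in 2iL.

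Single genes of LIF and Wnt signalling differed in both directions. Of 13 LIF-STAT3 genes tested, 3 were higher in LCDM and 6 lower, with a median of -0.19. Pim1, a kinase gene induced by STAT3, rose from 139.8 and 133 to 299.7 and 306 TPM (1.15 ± 0.06, adjusted p = 1.61e-06). Jak2, a kinase of cytokine receptors, fell from 10.6 and 10.9 to 4.68 and 4.04 TPM (-1.13 ± 0.10, adjusted p = 2.39e-05), and LCDM was the lowest of the 5 conditions. Stat3 fell from 36.4 and 35.7 to 27.8 and 26.3 TPM (-0.40 ± 0.05). Of 14 Wnt targets tested, 3 (21.4%) were higher and 4 (28.6%) lower, against 31.1% and 22.9% of all rows; 1 was higher without LCDM library 3. Axin2, a direct target of beta-catenin, fell from 35.3 and 34.6 to 13.6 and 14.4 TPM (-1.26 ± 0.06, adjusted p = 8.87e-07). Both media held 3 µM Chir99021. Among the 4 lower Wnt targets, 0 had a 2iL-F minus 2iL difference below 0.5. Without the rows higher in 2iL-F, 4 Wnt targets were lower. The part of fibroblast RNA in the falls of Wnt targets was not tested. The factor gene Tcf7 rose from 52.5 and 58.1 to 80.9 and 84 TPM (0.57 ± 0.06). Of 19 genes of TGF-beta, BMP and Nodal signalling, 11 were lower and 4 higher; without the rows higher in 2iL-F these counts were 4 and 1. Tgfbr2, a TGF-beta receptor, fell from 24 and 23 to 4.16 and 4.02 TPM (-2.27 ± 0.09) and was 35.4 and 31.9 TPM in 2iL-F. Bmp7 rose from 7.89 and 8.32 to 17.5 and 19.5 TPM (1.10 ± 0.09, adjusted p = 1.63e-05).

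Most cholesterol synthesis genes were higher in LCDM. Of 18 cholesterol synthesis genes tested, 13 were higher in LCDM and 1 lower, with a median of 0.44. With median-of-ratios scaling, with quantile normalisation, or without the rows higher in 2iL-F, 2 were lower. Mvd, an enzyme of the mevalonate pathway, rose from 79.6 and 73.5 to 141 and 147 TPM (0.91 ± 0.06, adjusted p = 5.59e-06). Of 52 subunits of oxidative phosphorylation, 26 were higher and 2 lower, with a median of 0.20; the count higher was 16 with median-of-ratios scaling, and 0 were lower without LCDM library 3 or A2iL library 5. Of 44 genes of mitochondrial translation, 25 were higher and 2 lower, with a median of 0.26; 0 or 1 were lower without any 1 of the 4 libraries. Glycolysis went the other way, with 4 of 20 higher and 11 lower; the count lower was 7 without LCDM library 5, and the count higher 2 without that library or A2iL library 3. The enolase gene Eno2 fell from 10.5 and 11 to 3.14 and 3.4 TPM (-1.46 ± 0.07, adjusted p = 1.14e-06), and Pfkp, a phosphofructokinase, from 43 and 43.3 to 23.8 and 23.2 (-0.85 ± 0.05). Of 38 genes of the ATF4 and amino acid response, 13 (34.2%) were higher and 12 (31.6%) lower, near the shares of 31.1% and 22.9% over all rows. The stress-induced factor gene Atf3 fell from 35.6 and 34.3 to 15.1 and 14.8 TPM (-1.17 ± 0.07, adjusted p = 2e-06), and the cystine transporter gene Slc7a11 from 5.93 and 6.11 to 1.09 and 0.843 (-1.84 ± 0.11). Of 28 glutathione and NRF2 target genes, 6 were higher and 12 lower, among them Hmox1, heme oxygenase, at 153 and 156 against 73.8 and 68.2 TPM (-1.11 ± 0.06, adjusted p = 1.27e-06). Of 17 genes of fatty acid synthesis, 8 (47.1%) were higher and 3 (17.6%) lower, against 31.1% and 22.9% of all rows.

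Imprinted and lineage genes completed the comparison. Of 13 imprinted genes tested, 9 were lower in LCDM and 1 higher, with a median of -0.69. Igf2r, a maternally expressed receptor, fell from 76.2 and 74.2 to 38.2 and 35.7 TPM (-1.01 ± 0.07, adjusted p = 5.18e-06), and Impact, expressed from the paternal allele, from 74.3 and 73.1 to 38.4 and 34.9 (-0.99 ± 0.09). Impact was lower in LCDM than in the other 4 conditions. Phlda2, a placental growth regulator, rose from 48.1 and 51 to 116 and 116 TPM (1.21 ± 0.07, adjusted p = 2.79e-06). H19 fell from 148 and 150 to 86 and 89 TPM and was 672 and 666 in 2iL-F. Of 16 trophoblast genes tested, 8 were higher and 5 lower, with a median of 0.23; 3 were lower without A2iL library 5. Esx1, a placental homeobox gene, rose from 3.55 and 2.85 to 12.5 and 13.9 TPM (1.76 ± 0.15, adjusted p = 2.26e-05), below the 31.3 and 22.7 TPM of the libraries labelled 2iL. Cdx2, a trophectoderm factor, was under 1 TPM in all 4 libraries. Of 20 primitive endoderm genes 5 (25%) were higher and 9 (45%) lower, and of 13 mesoderm and neural genes 2 (15.4%) were higher and 6 (46.2%) lower. Of 22 epithelial junction genes 8 (36.4%) were higher and 6 (27.3%) lower, near the 31.1% and 22.9% of all rows. Leaving out 1 of the 4 libraries took the higher count to 2 for primitive endoderm (LCDM library 3 or A2iL library 3) and to 1 for mesoderm and neural genes (the same libraries), and the lower count for junctions to 3 (any library but LCDM library 3). Gata6, a primitive endoderm factor and 1 of the 5 higher on that list, was at 3.02 and 3.23 against 4.72 and 4.64 TPM (0.46 ± 0.08, adjusted p = 0.00165). More members of the list were lower, and its median was -0.15, with single differences from -1.79 to 0.78. The adhesion gene Cdh1 was not called, at 236 and 231 against 226 and 235 TPM (adjusted p = 0.79).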

How the data were processed

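The deposited values are TPM, in 1 table of 20494 rows and 10 libraries; per the submitters' processing notes the authors used mm10, Bowtie2, RSEM, DESeq2 and R 3.4.2, without saying which step used which, and the sources used here do not give other versions. The listed TPM of a library sum to 71.0% to 73.0% of the total that TPM scale to. Libraries were grouped by the labels. From the deposited TPM, log2(TPM + 1) was modelled by limma (version 3.58.1, under R 4.3.3; linear fit, contrasts, then empirical Bayes with a mean trend) over all 10 libraries, with a mean per condition, no covariate and 5 residual degrees of freedom; Benjamini-Hochberg adjustment of the 2-sided p-values ran over the 14578 rows with at least 1 TPM in 2 or more libraries. Libraries 3 and 5 were not used as a block. On simulated data for this comparison, with 14578 rows and 5 runs, 58.4%, 93.2%, 97.2% and 98.8% of changes of 0.5, 1, 2 and 3 log2 units were called, and at most 4.4% of calls were false. Few rows were changed in these runs, in LCDM alone, and the noise was normal and independent between libraries. In the real comparison 54% of rows were called, so these shares need not hold for it.

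Symbols were checked with gene families. In the upper rows 98.6% of 222 broadly expressed members and 7.58% of 66 restricted ones had at least 5 TPM on their own row. Further down, 50% of 70 broadly expressed members did, against 91.4% on the next row. Only the upper rows, 7962 of them tested, were therefore used for names. The 2 media, the gene lists and the motifs were chosen with earlier results of these data known.

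Genes eligible for naming were the 15 largest changes in each direction at an adjusted p below 0.05, at least 1 log2 unit, at least 5 TPM and with libraries apart; the 15 largest among genes that differed by less than 0.5 the same way as fibroblast RNA between 2iL-F and 2iL; up to 4 called members per list; and a fixed set of marker genes. Predicted genes, Rik clones, ribosomal and histone genes were skipped. All 30 of the first kind are named; of the rest some are, chosen after values were seen, and 1 result is not reported here. Syce1, Tex15, Nfkbia and the promoter matches were added after values were seen. Coordinates are GENCODE vM21, mm10; promoters are RefSeq, GRCm38.p6. Alternatives were another pseudocount, filter or scaling, fewer libraries, robust eBayes, a replicate block, the named rows alone, and each library left out. Tables and figures used Python 3.11.15, pandas 2.3.3 and matplotlib 3.10.9.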

Additional observations from a re-analysis of the deposited data

How the results depend on the processing

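Of the 196 genes named by rule, the calls of 196 kept their direction and side of the threshold with robust eBayes and in the named rows alone, and 190 did with median-of-ratios scaling. The counts of 4534 rows higher, 3339 lower, 382 higher and 935 lower by at least 1 log2 unit in LCDM, and 4262 higher in 2iL-F than in 2iL, were within 1.5 times under all other alternatives but these. A pseudocount of 0.1 gave 726 rows higher by at least 1. Removing the rows higher in 2iL-F and rescaling the rest gave 386 lower by at least 1, of fewer rows tested. The upper rows alone, which are fewer, gave 2832 higher, 1994 lower, 153 and 509 by at least 1, and 2441 higher in 2iL-F. Leaving out single libraries gave 3540 to 4965 rows higher, 2711 to 3643 lower, 378 to 398 and 925 to 951 by at least 1, and 3622 to 4519 higher in 2iL-F. Sign turned for Klf4 (-0.05) and Src (-0.00) with median-of-ratios scaling and for Cdh1 without LCDM replicate 3 (0.01; -0.04 without LCDM replicate 5), none of them called; the cause was not tested. With a replicate block 7604 rows were called against 7873, and all 196 named genes kept their call. Same-numbered A2iL and LCDM libraries deviated together with r = 0.013, and over all pairs of conditions r ran from -0.131 to 0.075, so the numbers were not treated as pairs. List medians near 0 turned sign with scaling or after that removal, among them LIF-STAT3 (0.13 after the removal) and primitive endoderm (0.19). After the removal 2 PARP genes, 2 primitive endoderm genes, 2 mesoderm and neural genes and 3 primed genes were lower, and with median-of-ratios scaling 5 DNA methylation genes and 6 fatty acid genes were. Depth is unknown, and changes of genes under a few TPM are the least certain.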
